A study of Mus musculus with 48 samples.

Results

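Immediate early genes are transcribed within minutes of a stimulus, without new protein synthesis, and their mRNAs decay quickly. Growth factor receptors, insulin, cAMP signalling and mechanical or thermal stress all induce them, so that in a fat pad they can respond to a meal, to nerve signals or to the handling of the tissue. The 10 genes described here were taken by name from the count table and encode the AP-1 subunits Fos, Fosb, Jun and Junb, the stress-induced bZIP factor Atf3, the zinc finger factor Egr1, the nuclear protein Ier2, the orphan nuclear receptors Nr4a1 and Nr4a3, and Dusp1, the phosphatase that switches off MAP kinases. All 10 were found among the 54532 genes listed, and all 10 passed the filter on low counts, which kept 19977 genes.

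RNA came from the inguinal fat pad (iWAT, the subcutaneous depot also called sWAT) of mice labelled C57BL/6 and 8 months old, which the published methods give as C57BL/6J males. The ad-lib mice had food at all times, and the TAN (twice-a-night) mice were fed for 2 h after 9 p.m. and again for 2 h after 5 a.m. over 6 months. Each diet was sampled at 6 clock times (8AM, 12PM, 4PM, 8PM, 12AM and 4AM), with 4 libraries per diet and time and 48 in all, under lights on from 8 a.m. to 8 p.m. Both diets were group housed, no allele or drug was involved, and the labels do not say whether the 4 libraries of a group are 4 animals, so that p-values measure the spread between libraries, which may in part be technical.

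The TAN libraries held 15685080 to 25440243 counts and the ad-lib libraries 15636378 to 29913310. The series calls the material a stromal vascular fraction and the methods call it whole tissue. Adipocyte markers were abundant throughout, with group means of Adipoq, the main adipokine, from 1960 ± 383 to 5160 ± 1990 CPM (SD, n = 4). Times are those of the sample labels. A spreadsheet of FPKM values kept with the publication holds the same 48 libraries. Each one matched the column of its own diet and replicate number at a time 12 h away (48 of 48, over 979 genes). The deposited FPKM means matched the count table at the labelled time for 12 of 12 groups. Both belong to the same deposit and carry the same labels, so this match cannot show which clock times are right. The steps across a meal are therefore given for both readings. By the labels they are 12AM against 8PM and 8AM against 4AM, and by the spreadsheet they are the libraries labelled 12PM against 8AM and 8PM against 4PM. Dbp is a clock output gene that peaks late in the light phase in most mouse tissues. In ad-lib mice it was at 102 ± 19.9 CPM at labelled 4PM and at 27.4 ± 27.9 CPM at labelled 4AM (SD, n = 4). In TAN mice it was at 154 ± 58 and 9.93 ± 3.47 CPM at these times, and at 128 ± 97.9 at labelled 8PM. Its group mean was highest at labelled 4PM in both diets. That time lies late in the light phase by the labels and late in the dark phase by the spreadsheet.

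Lymphocyte markers separated the libraries and are given here because several of the results moved with them. The mean of 10 markers, among them Ms4a1, Cd79a, Cd79b, Cd3d, Cd3e, Cd3g, Cd2, Ltb and Cr2, lay between -0.27 and 1.71 log2 CPM in 10 libraries and between 4.57 and 7.60 in the other 38, and each of the markers named had counts in all 48. Of the 10, 6 were TAN (4PM replicates 1, 2 and 4, 8PM replicate 4, and 12AM replicates 2 and 4) and 4 were ad-lib (8AM replicate 4, 12PM replicates 1 and 3, and 4AM replicate 3). TAN 8PM replicates 1 and 2 stood at the other end, with lymphocyte means of 7.46 and 7.60, few detected genes (15271 and 15866, against 15693 to 23979 in the other 46 libraries) and adipocyte means of 8.96 and 8.44 against 10.84 and 11.52 in the other TAN 8PM libraries. In bulk tissue, fewer cells of a type and less RNA per cell cannot be told apart.

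Promoters are shown for Junb, Nr4a1, Nr4a3 and Dusp1, whose levels had a called slope on the lymphocyte markers (below), and for Fos, which had none. RefSeq windows on GRCm38.p6, of 250 bases before the start, were used for 8 of the 10 genes, and none was used for Egr1 and Ier2. Capitals mark TGACG or its reverse complement CGTCA, the core of the cAMP response element through which CREB induces many immediate early genes. Each sequence runs 5′ to 3′ on the gene's strand and stops before the first exon in GENCODE M21. Junb is chr8:84978749-84978998 (minus strand), Nr4a1 is chr15:101266596-101266845 (plus, within the span of longer Nr4a1 transcripts), Nr4a3 is chr4:48045055-48045152 (plus), Dusp1 is chr17:26508520-26508722 (minus) and Fos is chr12:85473640-85473889 (plus).
Junb: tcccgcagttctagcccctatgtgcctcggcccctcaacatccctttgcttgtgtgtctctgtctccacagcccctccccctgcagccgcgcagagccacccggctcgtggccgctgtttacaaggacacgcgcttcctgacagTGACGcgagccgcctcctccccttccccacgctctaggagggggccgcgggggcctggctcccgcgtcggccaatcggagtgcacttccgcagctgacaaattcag
Nr4a1: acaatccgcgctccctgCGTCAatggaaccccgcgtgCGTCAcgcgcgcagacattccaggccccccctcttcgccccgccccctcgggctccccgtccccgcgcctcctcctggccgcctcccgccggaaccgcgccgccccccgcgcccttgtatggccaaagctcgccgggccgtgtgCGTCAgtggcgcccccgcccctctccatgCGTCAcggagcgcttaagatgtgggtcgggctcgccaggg
Nr4a3: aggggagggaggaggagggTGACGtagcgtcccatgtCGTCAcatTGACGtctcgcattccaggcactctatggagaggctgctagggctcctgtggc
Dusp1: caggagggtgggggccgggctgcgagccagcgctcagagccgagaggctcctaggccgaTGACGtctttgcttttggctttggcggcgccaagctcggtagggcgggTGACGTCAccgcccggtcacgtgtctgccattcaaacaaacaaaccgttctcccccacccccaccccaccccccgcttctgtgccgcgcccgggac
Fos: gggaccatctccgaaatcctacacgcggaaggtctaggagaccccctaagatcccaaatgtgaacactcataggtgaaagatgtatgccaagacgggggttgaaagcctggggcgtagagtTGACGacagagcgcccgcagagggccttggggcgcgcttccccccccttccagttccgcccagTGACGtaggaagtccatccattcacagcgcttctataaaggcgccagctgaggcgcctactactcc
The 5-letter core was found on either strand in 7 of the 8 windows, against 17.9% of 27025 genes with a window of the same length. Nr4a1 held 4 copies over the window and Nr4a3 also 4, of which 3 are printed. The full 8-letter element TGACGTCA was found in Dusp1 alone of the 8, where it counts as 2 of the 3 overlapping core matches, and in 1.62% of all genes. The CArG box, bound by serum response factor, was found in 0 of the 8 windows and in 1.40% of all genes. With so low a share over all genes, 0 of 8 does not set these windows apart. Bases further upstream were not searched, nor were Egr1 and Ier2. Whether any of these letters is bound was not tested.

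Ier2 and Dusp1 were the most abundant of the 10 genes and Fosb the least. Per kilobase of exon, median levels over the 48 libraries were 23.9 CPM for Ier2, 17.4 for Dusp1, 10.5 for Junb, 6.58 for Jun, 3.34 for Egr1, 2.54 for Nr4a1, 1.95 for Fos, 1.87 for Atf3, 0.585 for Nr4a3 and 0.126 for Fosb. Interquartile ranges of neighbours in this order overlapped from Ier2 to Jun and again from Egr1 to Atf3. Those of Jun and Egr1, of Atf3 and Nr4a3, and of Nr4a3 and Fosb were apart. Fosb had no count in 4 libraries, Nr4a3 in 3 and Fos in 1, where a count of 0 allows up to 3 counts.

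**Figure D1:**
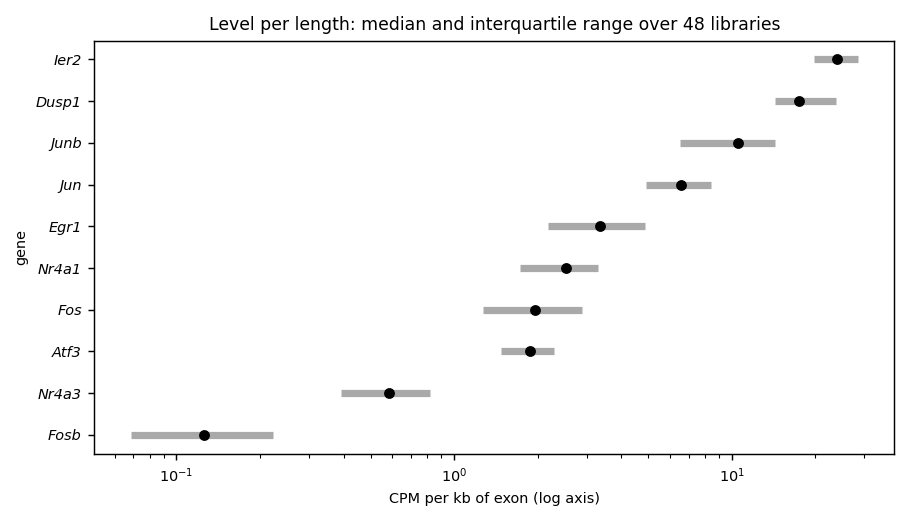
Median (points) and interquartile range (bars) of the level of each gene over the 48 libraries, in CPM per kilobase of exon on a log axis. Ier2, at 23.9, stands at one end and Fosb, at 0.126, at the other.

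Spread between libraries of a group differed among the genes. The residual SD on the log2 scale, within groups, was 1.48 for Nr4a3, 1.33 for Fos, 1.28 for Fosb, 1.24 for Junb, 1.06 for Egr1 and 0.98 for Nr4a1, against a median of 0.71 over all genes tested. It was 0.67 for Atf3, 0.58 for Jun and for Ier2 and 0.50 for Dusp1, below that median. Among genes of similar level (within 0.5 log2 CPM), 95.2% had a smaller SD than Junb, 91.9% than Egr1, 88.9% than Fos, 88.4% than Nr4a3, 82.2% than Nr4a1, 80.1% than Ier2, 75.8% than Dusp1, 73.3% than Jun, 60.4% than Fosb and 31.4% than Atf3, so that Jun, Ier2 and Dusp1 were also more variable than most genes of their level.

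**Figure D2:**
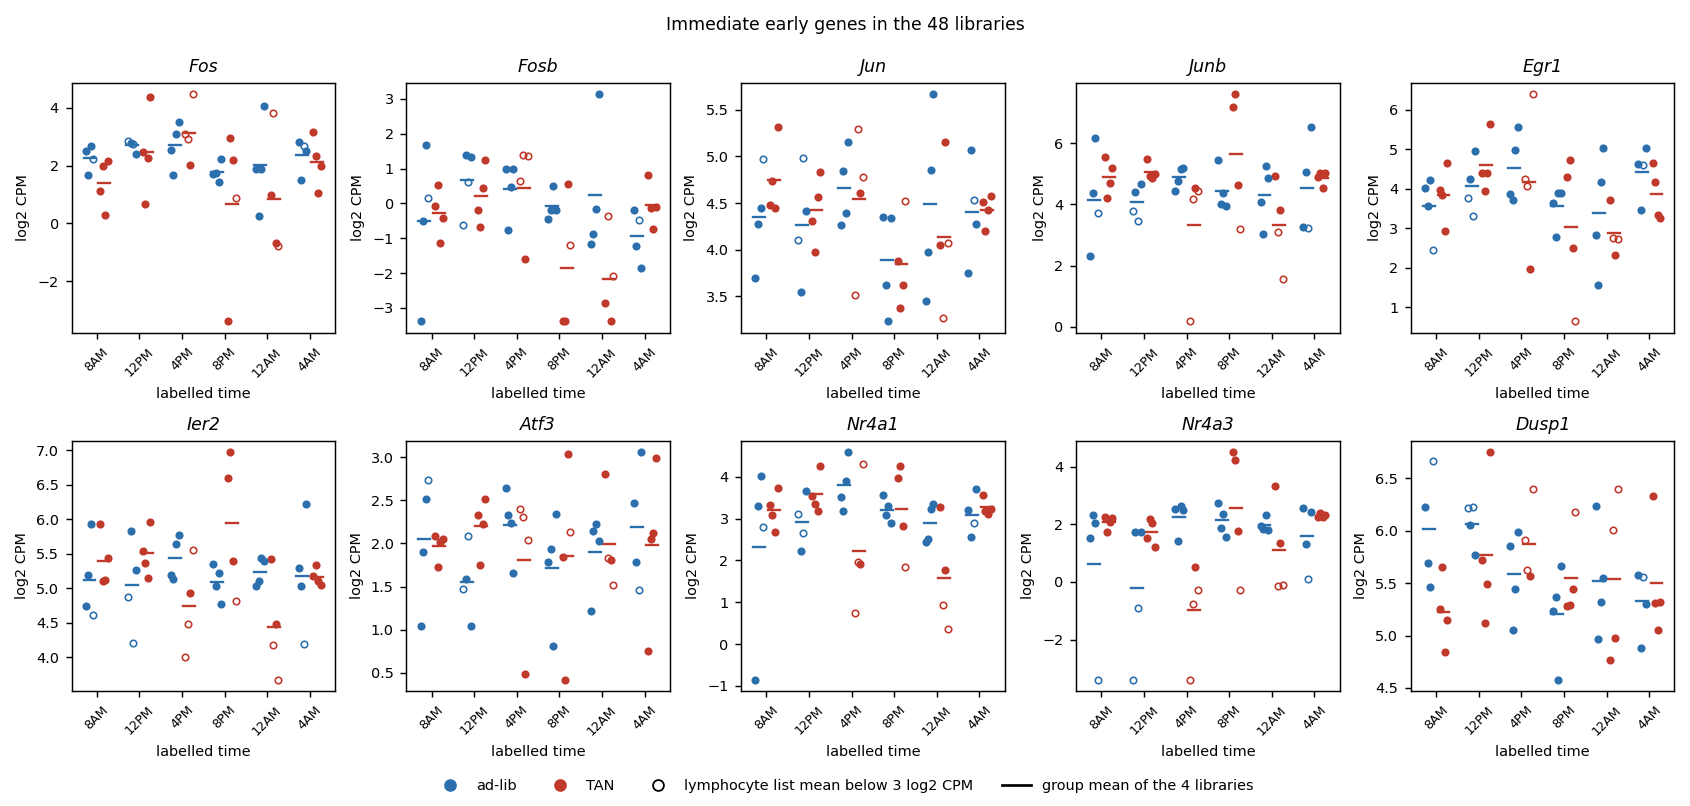
Log2 CPM of each gene by labelled time, with 1 point per library, ad-lib in blue and TAN in red, lines at group means and open points for the 10 libraries low in lymphocyte markers. Junb, Ier2 and Nr4a3 rise highest in 2 TAN libraries at 8PM, and the open points of Nr4a3 lie below its other points.

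Diet was compared at each time point with edgeR's quasi-likelihood test over all 19977 genes, where a call needs both a difference of more than 1 on the log2 scale and a p, adjusted by Benjamini-Hochberg, below 0.05. Of the 60 tests of the 10 genes, 1 gave a call, and it was the lower Nr4a3 of TAN mice at 4PM. The calls were 0 of 10 at 8AM (0.0150% of all genes), 0 at 12PM (0.0901%), 1 at 4PM (10.4%), 0 at 8PM (7.03%), 0 at 12AM (0.135%) and 0 at 4AM (0% of all genes, where DESeq2 and limma voom also called 0 of the 10). Without the adjustment of p the counts were 0, 0, 1, 2, 1 and 0 in that order. DESeq2 called 1, 2 and 1 at 4PM, 8PM and 12AM and limma voom 1 at 4PM, and both called 0 at 8AM and 12PM.

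At 4PM, Nr4a3 was listed at 0, 0.486, 1.34 and 0.726 CPM in the TAN libraries and at 5.67, 2.56, 6.14 and 5.57 CPM in the ad-lib libraries. No library of one diet reached the other, and the log2 fold change was -2.94 ± 0.99 (SE, edgeR adjusted p = 0.0401). Diets did not overlap at 4PM for 30.6% of all genes. The lymphocyte mean was at or below 1.15 in 3 of the 4 TAN libraries at 4PM and at least 6.35 in the 4 ad-lib libraries, and with that mean as a covariate the difference was -0.51 (edgeR adjusted p = 0.786). Leaving out any of ad-lib replicates 1, 3 and 4 or TAN replicates 1, 2 and 4 ended the call, with differences from -3.0 to -2.53. Nr4a1, the related receptor, was at 1.59, 3.78, 3.70 and 19.6 CPM in TAN and at 11.3, 8.91, 14.7 and 24 in ad-lib at 4PM, where TAN replicate 4 lay above 3 of the ad-lib libraries.

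At 8PM, Junb and Ier2 were higher in TAN mice at an unadjusted p but were not called. Junb was at 146, 195, 25.1 and 9.01 CPM in TAN and at 43.7, 16.2, 20.7 and 15.3 in ad-lib (log2 fold change 1.97 ± 0.80 SE, edgeR adjusted p = 0.0958). Ier2 was at 96.8, 125, 42.0 and 28.2 CPM in TAN and at 40.8, 32.5, 37.1 and 27.3 in ad-lib (1.08 ± 0.39, edgeR adjusted p = 0.0616). In both genes the high values were those of TAN replicates 1 and 2, which had 2882 and 4866 counts of Junb. Nr4a3 was at 22.7 and 18.5 CPM in the same libraries and at 3.31 and 0.732 in the other two. Fos was at 0 and 7.62 CPM and Fosb had no count in both of them. Without the 10 libraries low in lymphocyte markers, which removes TAN replicate 4, Junb, Ier2 and Nr4a3 were called at 8PM, and with the lymphocyte covariate Junb and Ier2 were. Non-overlap of the diets was found for none of the 10 genes at 8PM (16.1% of all genes), nor at 8AM (3.07%), 12AM (9.13%) or 4AM (3.09%).

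Junb was the one gene whose diets did not overlap at 12PM, at 44.8, 30.4, 28.9 and 31.7 CPM in TAN and 13.7, 21.3, 10.8 and 25.2 in ad-lib (4.84% of all genes did not overlap there). The difference was not called. At 12AM, Fosb was at 0.0426, 0.690, 0 and 0.138 CPM in TAN and at 0.352, 0.450, 0.797 and 8.73 in ad-lib, which overlap (log2 fold change -3.56 ± 1.2 SE, edgeR adjusted p = 0.147). DESeq2 called this difference. Its mean rests on ad-lib replicate 4, which had 186 counts of Fosb and also the highest Fos of its group, 16.7 CPM against 1.10 to 3.59. At 8AM, Dusp1 was at 38.0, 50.1, 28.5 and 35.5 CPM in TAN and at 74.7, 51.5, 44.0 and 102 in ad-lib (-0.84 ± 0.35, edgeR adjusted p = 0.683), and TAN replicate 2 lay above ad-lib replicate 3.

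Across the labelled first meal, from 8PM to 12AM, the TAN libraries lost Junb and Ier2. Junb went from a mean of 93.8 ± 91.1 to 13.9 ± 11.8 CPM (SD, n = 4), a log2 fold change of -2.75 ± 0.82 (SE, edgeR adjusted p = 0.0296). Ier2 went from 73.0 ± 45.6 to 23.9 ± 13.2 CPM, a change of -1.61 ± 0.40 (edgeR adjusted p = 0.0113). At 12AM the libraries lay at 30.2, 8.47, 14 and 2.84 CPM for Junb and at 42.9, 18.0, 22.2 and 12.7 for Ier2, so that replicate 1 at 12AM lay above replicates 3 and 4 at 8PM in both. These were 2 of 10 genes, with 7.16% of all genes called. Nr4a1 gave -1.50 ± 0.63 (edgeR adjusted p = 0.108). Within ad-lib the same step called 0 of 10 (0% of all genes), and the difference between the diets in this step was called for 0 of 10 (0.0501% of all genes), by edgeR, DESeq2 and limma voom alike. Unadjusted, the step differed between the diets for Junb (-2.69 ± 1.11) and Ier2 (-1.75 ± 0.56).

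Which libraries were used decided these calls. Without TAN 8PM replicate 1 or replicate 2, or without TAN 12AM replicate 4, none of the 10 genes was called across this step. Without TAN 12AM replicate 1, which carried a lymphocyte mean of 7.04 against 0.16, 4.98 and 0.67 in the others, Junb, Ier2, Nr4a1 and Nr4a3 were. The heat shock list of 14 chaperone genes stood at 6.82 ± 0.15 log2 CPM in TAN and 6.52 ± 0.30 in ad-lib at 12AM (SD, n = 4), above every other group mean, which were 5.85 to 6.31. In the TAN step 4 of its 14 genes were called higher and 0 lower, against 829 higher and 602 lower of the 19977 genes tested. Hspa1a and Hspa1b, its most stress-inducible members, had medians of 0.936 and 1.98 CPM over the 48 libraries.

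Between 4PM and 8PM, TAN mice gained Junb, Ier2 and Nr4a3. The spreadsheet places these libraries around the second meal, whereas by the labels no meal lies between them. Junb rose from 1.04, 18.0, 23.0 and 21.6 CPM by a log2 fold change of 2.56 ± 0.82 (SE, edgeR adjusted p = 0.0241) and Ier2 from 15.9, 22.3, 30.4 and 46.9 CPM by 1.34 ± 0.40 (adjusted p = 0.0164). Nr4a3 rose by 4.12 ± 1.03 (edgeR adjusted p = 0.00691), from 0.638 ± 0.558 to 11.3 ± 10.9 CPM (SD, n = 4). At 8PM, replicates 3 and 4 of TAN lay within or near the 4PM range for Junb and Ier2, so that the rise was carried by replicates 1 and 2. These were 3 of 10 genes, with 16.9% of all genes called. In ad-lib 0 of 10 were called (0% of all genes), and the step differed between the diets for 0 of 10 (0.0350%), although DESeq2 called Nr4a3 and edgeR gave Junb, Ier2 and Nr4a3 a p under 0.05 before adjustment. This comparison shares the 8PM libraries of TAN with the step to 12AM and with the 8PM diet comparison, so that the 3 are not separate evidence.

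Lymphocyte markers moved with the rise, from a mean of 1.69 ± 2.20 to 5.74 ± 2.76 log2 CPM (SD, n = 4). Of the 19977 genes tested, 1461 were called lower and 1911 higher in this step. Other lists moved in the same step, with stroma going from 7.07 ± 0.35 to 5.8 ± 0.90 (3 of 8 genes called lower) and endothelium from 5.99 ± 0.58 to 4.72 ± 0.97 (3 of 6 lower). TAN 8PM replicates 1 and 2 were lowest in both, with endothelium means of 4.17 and 3.63 against 5.44 and 5.62 in the other two, and the part of these lists in the rise was not tested. With the lymphocyte mean as a covariate the changes were 0.78 for Junb (edgeR adjusted p = 0.566), 0.37 for Ier2 (0.517) and 1.51 for Nr4a3 (0.212), and none was called. Leaving out TAN 8PM replicate 1 or 2, or TAN 4PM replicate 1 or 2, left Nr4a3 as the one gene called, and without TAN 4PM replicate 4 the call of Junb was lost. Without the 10 libraries low in lymphocyte markers, where 1 TAN library remains at 4PM and is assumed to vary like the other groups, Nr4a3 alone was called. The voom fit called Fos, Fosb, Ier2 and Nr4a3 in place of Junb, with Fos at 8.55, 7.40, 3.98 and 22.2 CPM at 4PM and 0, 7.62, 4.50 and 1.75 at 8PM.

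No gene of the 10 was called in the remaining steps. On either reading no sampled time lies within a meal, so a brief rise that had already decayed would be missed. From 4AM to 8AM, across the second meal by the labels, 0 of 10 were called in TAN (0.0100% of all genes) and in ad-lib (0%), and the diets differed for 0 (0%). From 8AM to 12PM, across the first meal by the spreadsheet, 0 of 10 were called in TAN (0.0100%), in ad-lib (0.0100%) and between the diets (0%). DESeq2 and limma voom also called 0 of 10 in these 6 tests, and an unadjusted p under 0.05 with the fold threshold, where one applied, was met by Dusp1 alone, in the diet difference of the 4AM to 8AM step (-1.08 ± 0.49, edgeR adjusted p = 1). TAN libraries at 4AM were tight for Nr4a3, at 4.65, 5.22, 4.65 and 4.87 CPM, and were 4.72, 3.22, 4.19 and 4.60 CPM at 8AM. Fos, the classic gene of the group, was at 8.98, 4.96, 1.97 and 3.88 CPM at 4AM and at 2.08, 3.87, 1.14 and 4.38 at 8AM.

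**Figure D3:**
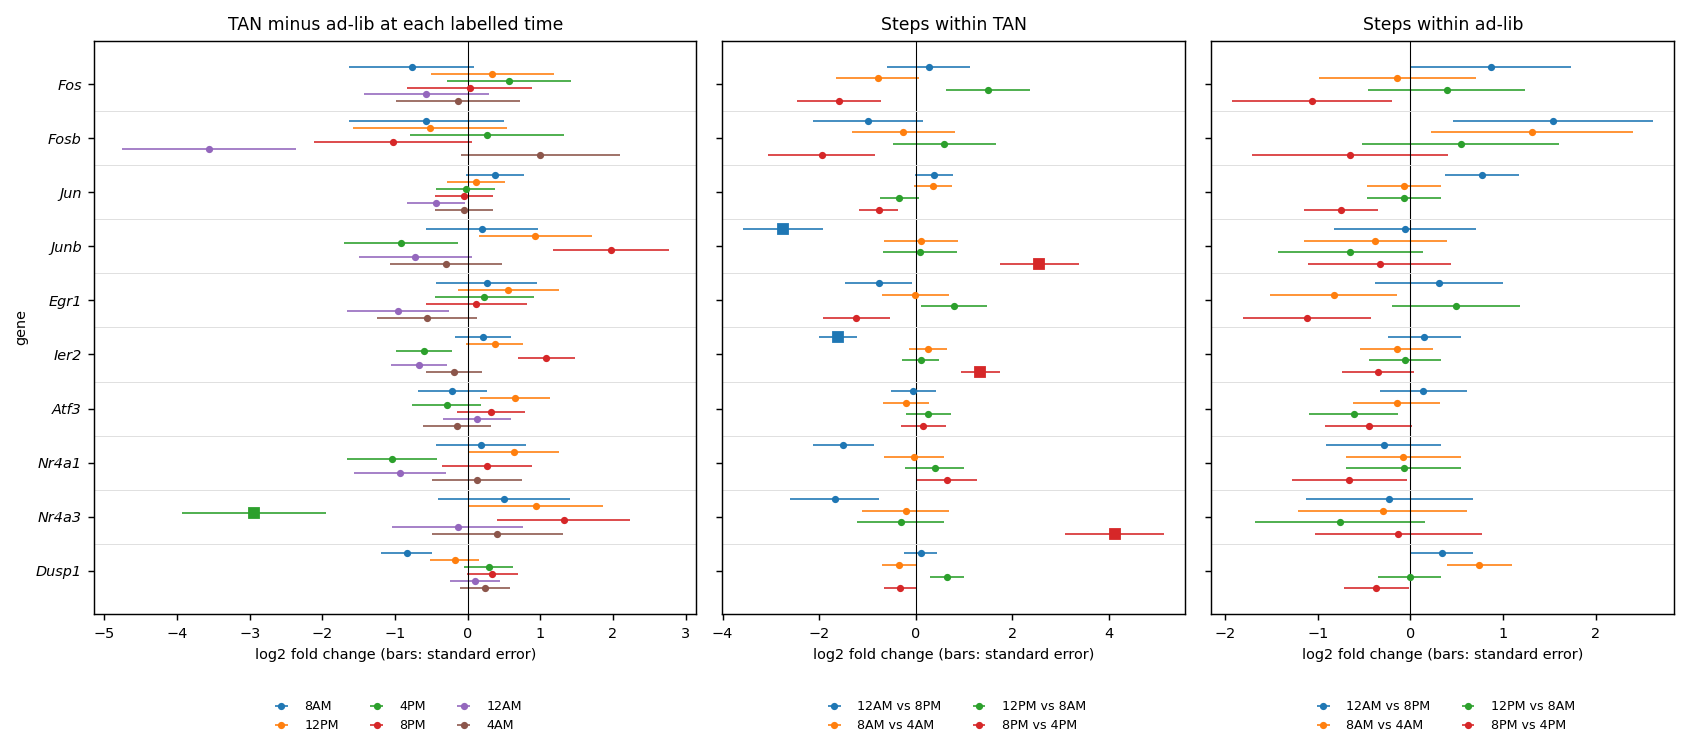
Log2 fold change with standard error of each gene for TAN minus ad-lib at each labelled time (left) and for 4 steps between times within TAN (middle) and within ad-lib (right), with called differences as large squares. The squares are Nr4a3 at 4PM and, within TAN, Junb and Ier2 in both steps that involve 8PM and Nr4a3 from 4PM to 8PM.

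Over the whole day, Junb (edgeR adjusted p = 0.0456), Ier2 (0.0242) and Nr4a3 (0.0464) varied between time points in TAN, 3 of 10 genes against 23.0% of all genes. Leaving out TAN 8PM replicate 1 or 2, or TAN 12AM replicate 2, left 0 of the 10 by edgeR. Of the 24 fits that left out a single TAN library, 16 others called Ier2 alone. In ad-lib 0 of 10 varied (0.0551% of all genes), a TAN effect averaged over the 6 time points was found for 0 of 10 (5.42%), and an effect that differed between time points for 0 of 10 (8.98%). DESeq2 and limma voom likewise called 0 in these 3 tests, and at an unadjusted p the last of them was met by Ier2 and Nr4a3. Ad-lib means of Fos ran from 3.40 ± 0.854 CPM at 8PM to 7.10 ± 3.49 at 4PM and those of Egr1 from 12.2 ± 3.70 to 26.4 ± 16.1 (SD, n = 4), and all TAN group means of Jun lay between 15.0 ± 5.53 and 27.6 ± 8.48 CPM.

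Some of the genes tracked the lymphocyte markers across libraries. In a model with the groups and the marker mean, log2 expression rose per log2 unit of the marker mean by 0.52 ± 0.07 for Nr4a3 (SE, edgeR adjusted p = 4.1e-08), 0.32 ± 0.07 for Junb (0.000234), 0.19 ± 0.03 for Ier2 (1.11e-06) and 0.16 ± 0.06 for Nr4a1 (0.0391), and it decreased for Dusp1 (-0.13 ± 0.03, 0.00097). The slopes of Fos, Fosb, Jun, Egr1 and Atf3 were not called. That is 5 of 10 genes against 44.4% of all genes tested, so that the share is near the background. Without the 10 low libraries the same 5 genes were called, with slopes of 0.68, 1.01, 0.45, 0.75 and -0.30 in the order above. In ad-lib libraries alone Nr4a3, Junb and Ier2 were called, and without TAN 8PM replicates 1 and 2 the slope of Nr4a1 was 0.13 and was not called (edgeR adjusted p = 0.0998).

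In the 10 libraries low in lymphocyte markers, Nr4a3 ran from 0 to 0.989 CPM (median 0.606), and in the other 38 from 1.34 to 22.7 (median 4.32). These ranges did not overlap, and the share of all genes that separate in this way was not counted. A called slope on the list was found for 44.4% of all genes. Antigen receptor signalling induces Nr4a3 in lymphocytes, and its part here was not tested. Medians in the 10 and the 38 were 10.1 and 29.1 CPM for Junb, 20.3 and 38.8 for Ier2 and 4.98 and 9.45 for Nr4a1. Dusp1 ran the other way, with 73.6 and 42.3 CPM. Fos was at 6.90 and 4.18 CPM, Jun at 22.9 and 20.6, Atf3 at 4.09 and 4.01, Egr1 at 11.6 and 15.5, and Fosb at 0.851 and 0.784. The ranges of the 10 and the 38 overlapped for every gene except Nr4a3. For Dusp1 they were 47 to 102 and 23.9 to 107 CPM, and for Junb 1.04 to 21.6 and 4.85 to 195. The split was set at 3 log2 CPM after the values were seen, and these figures are a description.

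**Figure D4:**
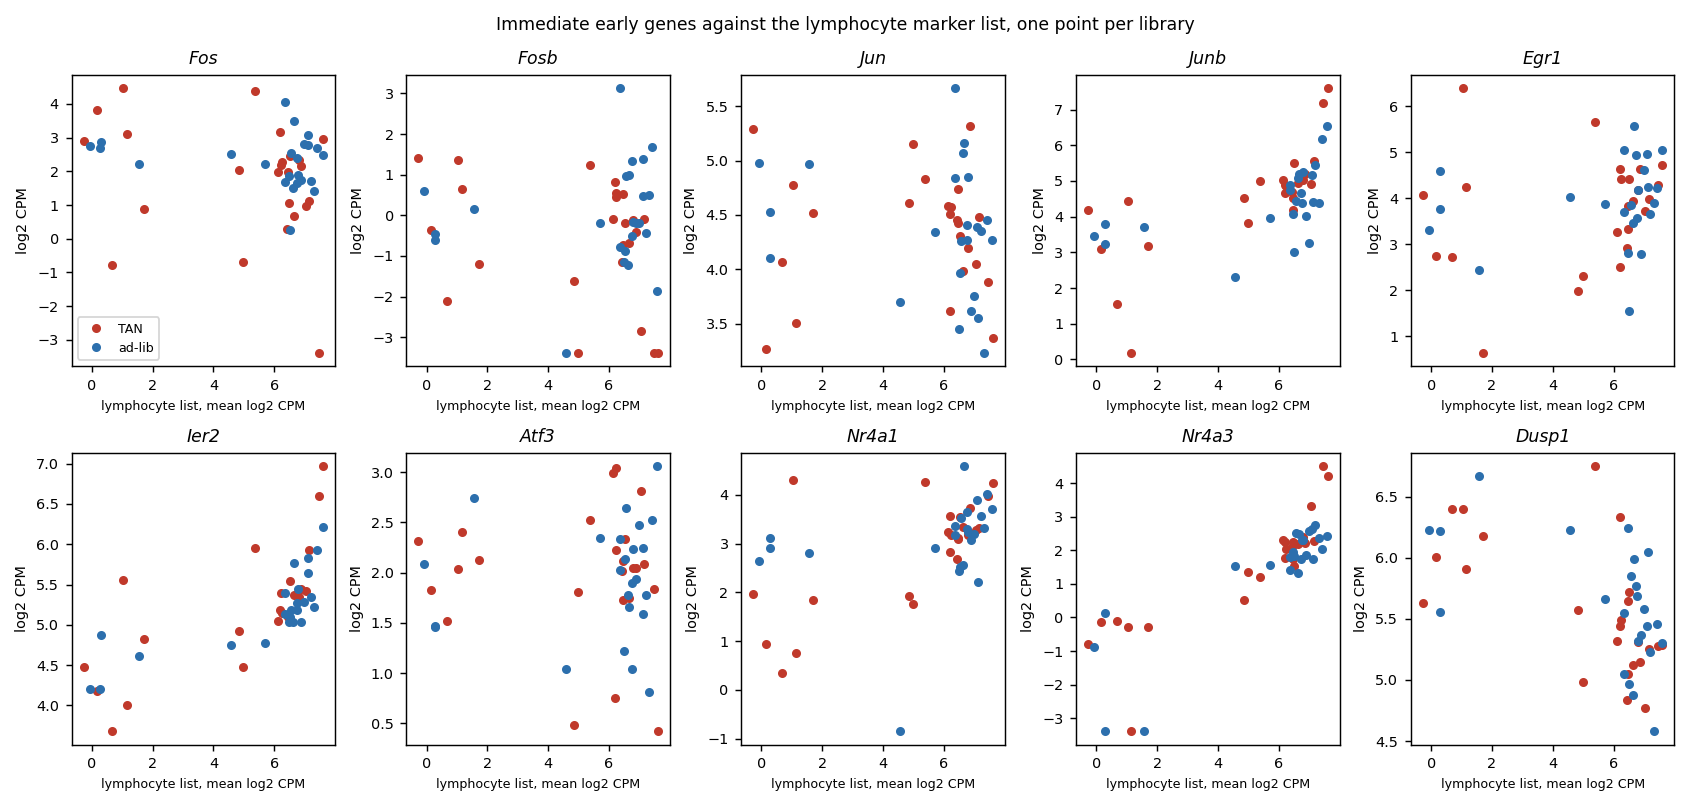
Log2 CPM of each gene against the mean log2 CPM of 10 lymphocyte markers, with 1 point per library, ad-lib in blue and TAN in red. Nr4a3, Junb and Ier2 climb with the markers, Dusp1 falls, and Fos, Jun and Atf3 show no called slope.

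The heat shock list, by contrast, had a called slope with 0 of the 10 genes by edgeR (0.0100% of all genes, and 0 of the 10 at an unadjusted p under 0.05). Its residual SD between libraries of a group was 0.20 log2 units against 2.22 for the lymphocyte list, which leaves the heat shock slopes with standard errors of 0.42 to 1.44. Of 7 cytokine and inflammatory genes, several were near the detection limit. Il6 had a median of 0.115 CPM and no count in 17 libraries, Cxcl2 0.0578 CPM and no count in 20, and Ptgs2 0.741 CPM. Whether meals, handling of the tissue or the cell makeup of a library set the levels of the 10 genes was not tested.

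**Figure D5:**
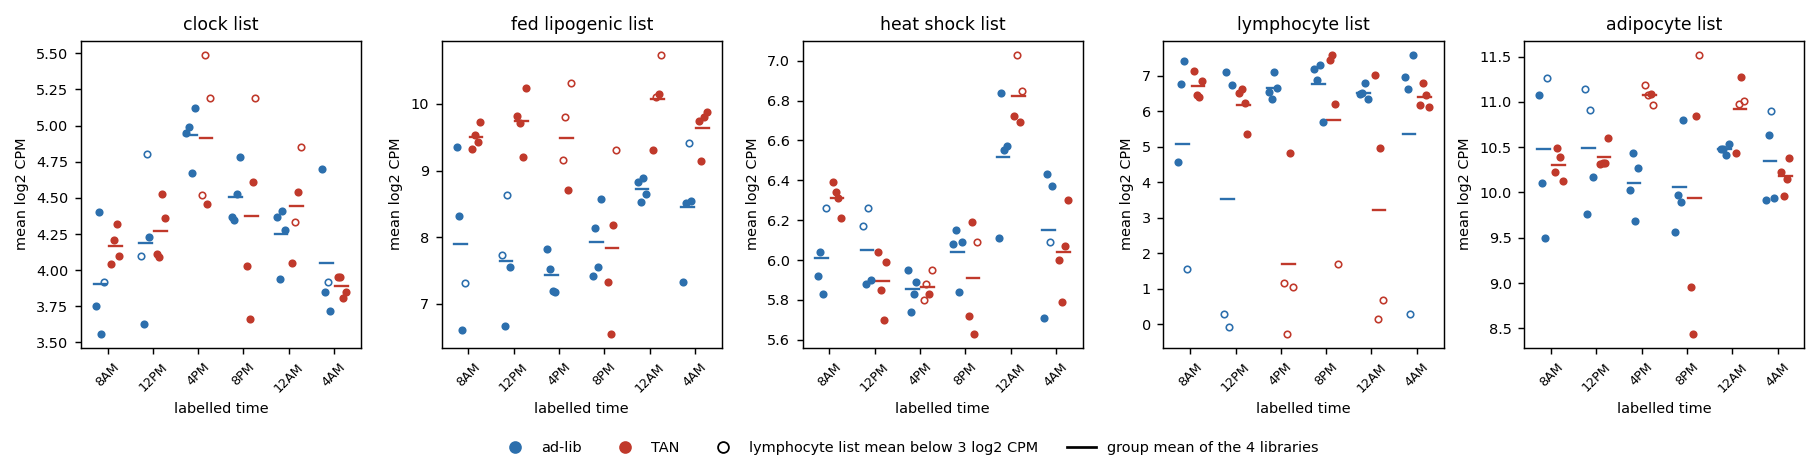
Mean log2 CPM of the clock, fed lipogenic, heat shock, lymphocyte and adipocyte lists by labelled time, with 1 point per library and lines at group means. The heat shock list is highest at 12AM in both diets, and the lymphocyte list drops below 3 in 10 libraries.

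The 10 genes did not vary as a single group between libraries. Over the 45 pairs, Pearson's r of the residuals (n = 48 libraries, after group means were removed) had a median of 0.15 and ran from -0.46, for Nr4a3 and Dusp1, to 0.83, for Junb and Ier2. The next highest values were 0.73 for Junb and Nr4a1, 0.71 for Ier2 and Nr4a3, 0.68 for Ier2 and Nr4a1, 0.62 for Junb and Nr4a3 and 0.60 for Egr1 and Ier2, whereas the related Nr4a1 and Nr4a3 gave 0.36. Fos went with its close relative Fosb (0.54) and with Dusp1 (0.43) and not with Junb (0.01). After removal of the lymphocyte slope, r for Junb and Ier2 was 0.73, for Junb and Nr4a1 0.69, for Egr1 and Ier2 0.64, for Ier2 and Nr4a3 0.26, for Nr4a1 and Nr4a3 0.13 and for Nr4a3 and Dusp1 -0.02. The points share the libraries, their depth and their cell makeup, and the values are descriptions.

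The 10 other genes with residuals most like the mean of the 10 scaled members over the 48 libraries, among 14753 genes with a mean of at least 1 CPM, were Csf3r (r = 0.70), the receptor of the granulocyte growth factor G-CSF, Sorcs2 (0.67), Plekho2 (0.66), Egr2 (0.66), a zinc finger relative of Egr1, Gprasp2 (0.65), Treml4 (0.65), Unkl (0.64), Tgfbr2 (0.63), a TGF-beta receptor, Map3k3 (0.63), a MAP kinase kinase kinase, and Ildr2 (0.63). Only Egr2 belongs to the wider list of immediate early genes.

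A wider list held 47 immediate early and rapid response genes, of which 46 were tested. Among pairwise comparisons, most of its calls fell in the step from 4PM to 8PM in TAN. Over the 6 time points, 18 of the 46 varied in TAN (39.1%, 23% of all genes) and 1 in ad-lib (2.17%, 0.0551% of all genes). The averaged TAN effect was called for 1 (2.17%, 5.42% of all genes). An effect that differed between times was called for 3 (6.52%, 8.98% of all genes). Against ad-lib, 1 was higher and 4 were lower in TAN at 4PM (10.9% of the 46, 10.4% of all genes) and 2 were higher at 8PM (4.35% of the 46, 7.03% of all genes), shares near or below the background, and 0 were called at 8AM, 12PM, 12AM and 4AM. Within TAN, 2 rose and 4 fell from 8PM to 12AM (13% of the 46, 7.16% of all genes), and 16 rose and 1 fell from 4PM to 8PM, which is 37.0% of the 46 against 16.9% of all genes. Medians of the log2 fold change in that step were 0.70 for the 46, -0.08 for the 10 genes and -0.07 for all genes tested. Without the 10 libraries low in lymphocyte markers, which leaves 1 TAN library at 4PM, the median of the 10 genes was 1.63. With the lymphocyte list, 23 of the 46 had a called positive slope and 11 a negative one, where 44.4% of all genes had a called slope in either direction.

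The largest changes in the wider list, all from 4PM to 8PM in TAN, were those of Dusp2, a MAP kinase phosphatase of immune cells (log2 fold change 4.59 ± 1.37 SE, edgeR adjusted p = 0.0174), Arc, first known from neurons (3.72 ± 1.36, 0.0437), and Gadd45b, a growth arrest and stress gene (3.56 ± 0.73, 0.00289). Dusp5 (3.30), Egr3 (2.81), Ier5 (2.62), Csrnp1 (2.44), Socs3 (2.42), which restrains cytokine signalling, Tnfaip3 (2.06), which restrains NF-kappaB, and Klf2 (1.92), a factor of quiescent lymphocytes and endothelium, rose in the same step. Egr3 and Tnfaip3 were lower in TAN than in ad-lib at 4PM by -2.59 ± 0.83 and -2.41 ± 0.61. Csrnp1, Gadd45b and Klf2 fell again from 8PM to 12AM by 2.13, 2.34 and 1.88 on the log2 scale. These comparisons rest on the same libraries as those of the 10 genes, with lymphocyte means of 1.69 in TAN at 4PM against 6.67 in ad-lib and 5.74 in TAN at 8PM, and the part of the markers in the changes of the wider list was not tested.

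Some counts may hold reads of a neighbour, since the libraries are described as either directional or not and the counting setting is not given in the sources used here. Junb overlaps Prdx2, a peroxiredoxin on the other strand, by 351 bases, and Jun overlaps the antisense gene Junos by 689 bases. Prdx2 had group means of 135 ± 13.5 to 286 ± 72.8 CPM and was at 266 ± 49.3 CPM in TAN at 8PM and 259 ± 69.2 at 4PM (SD, n = 4). Junos stayed at or below a group mean of 1.11 ± 0.816 CPM. Atf3 overlaps a short RNA gene on the other strand by 108 bases. The remaining 7 genes overlap no other gene of the table.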

How the data were processed

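Poly-A RNA of inguinal fat was sequenced in 48 libraries, and the authors deposited whole-number counts per gene and library, which were used as deposited. They also deposited FPKM means per diet and time, used only to check the labels. The submitters' processing notes list TopHat 1.3.3, DESeq2 1.20.0, limma and edgeR, and the counting tool, its strand setting and the annotation are not given in the sources used here. Gene coordinates of the count table match GRCm38. Columns of sample values left unused numbered 0.

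Counts were fitted with edgeR 4.0.16 in R 4.3.3 (quasi-likelihood, robust, TMM factors, a minimum count of 10 in filterByExpr, 12 groups of 4 libraries), and p-values were adjusted over all 19977 genes tested. Steps that differ between the diets and tests over all times were called at an adjusted p below 0.05 with no fold threshold. CPM used library sizes scaled by TMM, and log2 CPM used a prior count of 2. DESeq2 1.42.0, limma 3.58.1 (voom), other filters and factors, covariates, a replicate block and leaving out libraries were alternatives. The fits were tested on simulated counts. Marker slopes and the fits without the 10 libraries low in lymphocyte markers were added after the data were seen. No library pair was identical. Depth limits the genes with few counts, and a count of 0 allows up to 3.

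All members are named. From the wider list, called genes are named by the largest absolute log2 fold change, at most 10, and beyond it the 10 genes most like the members in their residuals. The members and lists were chosen with earlier results of these data known. An item of the lymphocyte list is not reported here.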

Additional observations from a re-analysis of the deposited data

Results flagged for a closer look

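In each of the 120 combinations of gene, diet and time, the highest and lowest of the 4 libraries were compared with the nearest other library by Dixon's criterion. Its 95% critical value is exceeded by chance in about 1 of 20 groups of normally distributed values. Here it was applied to CPM without a log, so that this rate need not hold. The criterion was exceeded 8 times in the 120, close to 1 in 20, 7 times by a high and 1 time by a low library.

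At 12AM, ad-lib replicate 4 stood apart for both Fos (16.7 CPM, others 1.10 to 3.59) and Fosb (8.73 CPM, others 0.352 to 0.797), and TAN replicate 2 for Fos (13.9 CPM, others 0.484 to 1.87). Also at 12AM, Atf3 was at 6.90 CPM in TAN replicate 1 and at 2.77 to 3.45 in the others. Dusp1 was at 80.3 CPM in TAN 4AM replicate 1 (others 33.0 to 39.9) and at 72.6 CPM in TAN 8PM replicate 4 (others 38.7 to 43.3), the latter a library low in lymphocyte markers. Nr4a1 was at 19.6 CPM in TAN 4PM replicate 4 (others 1.59 to 3.78). Nr4a3 in ad-lib 4PM replicate 2 was the low value, 2.56 CPM against 5.57 to 6.14.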

How the results depend on the processing

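Of the fold changes and slopes of the 10 genes that were rerun (those with a p below 0.05), none changed sign under an alternative. The median of the 10 genes from 4PM to 8PM in TAN (-0.08) did, at -0.31 to 0.10 on leaving out 1 library and at 1.63 without the 10 libraries low in lymphocyte markers. The numbers of the 10 genes called changed as follows, and the cause was not tested. From 8PM to 12AM in TAN (2 called), 1 was called without the filter on low counts, with the lymphocyte covariate, by limma voom and without the 10 libraries low in lymphocyte markers, Ier2 each time, and 0 with the heat shock covariate, where the changes were about as large (Junb -3.01, edgeR adjusted p = 0.236, and Ier2 -1.54, 0.216). From 4PM to 8PM in TAN (3 called), 0 were called with the lymphocyte covariate and 1 without the 10 libraries. At 4PM between diets (1 called), 0 were called without the filter, with the lymphocyte or TEC share covariate, without the 10 libraries, and with the replicate block. TEC are unverified gene models, whose share of counts varied between libraries. The filter of at least 10 counts in every library removed Nr4a3, which had no count in 3 libraries, so that fit could not test its call. Fos, Fosb and Nr4a1 were removed by it as well. At 8PM between diets (0 called), 1 was called with at least 10 counts in every library, 2 with the lymphocyte covariate, unadjusted or by DESeq2, and 3 without the 10 libraries. At 12AM 1 was called unadjusted or by DESeq2.

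The step to 12AM differed between diets for 2 genes unadjusted, the step to 8AM for 1, and the step from 4PM to 8PM for 3 unadjusted and 1 by DESeq2. The TAN effect differed between times for 2 unadjusted and 1 without the 10 libraries. Variation over time in TAN (3 called) gave 1 without the filter, with the replicate block and with the lymphocyte or heat shock covariate, and 0 with the TEC share covariate. Slopes on the lymphocyte list (5 called) numbered 3 in ad-lib libraries alone.

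Leaving out 1 library at a time gave 0 to 4 genes from 8PM to 12AM in TAN, 1 to 4 from 4PM to 8PM, 0 to 1 at 4PM and 0 to 2 at 8PM between diets, 0 to 3 for variation in TAN, 0 to 1 and 0 to 3 for the diet differences of the 8PM to 12AM and 4PM to 8PM steps, and 0 to 1 for the TAN effect differing between times.

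Equal replicate numbers showed no common pairing between the diets. Of 24 pairs of equal number, diet against diet at one time, 10 had a correlation above 0.1 over 5000 genes. The median was -0.0127 and the range -0.586 to 0.844. Pairing by number between times within a diet was not examined. With the replicate block Nr4a3 at 4PM was -2.88 (edgeR adjusted p = 0.0515). With 4 libraries a group and within-group SDs above 1 log2 unit for Nr4a3, Fos, Fosb, Junb and Egr1, smaller differences of these genes were not detectable.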
